A study of Mus musculus with 2 samples.

Results

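The 8 genes described here encode chemokines that draw lymphocytes and dendritic cells, and the receptors that read them: the ligands Cxcl9, Cxcl10, Cxcl16, Ccl17 and Ccl22, and the receptors Cxcr3, Cxcr6 and Ccr7. They were taken by symbol from the 32285 genes of the count matrices, and all 8 were found. The study collected left lower lung lobes from male ICR mice, an outbred stock, aged 6 to 8 weeks, and counted RNA in single cells by droplet capture. The LPS_MCZ mice received lipopolysaccharide (LPS), a bacterial cell wall component that sets off lung inflammation, and miconazole (MCZ), an azole antifungal, by intraperitoneal injection. The sample's own label gives a miconazole dose of 0.2 mg/kg, whereas the protocol states 1 mg/kg. The LPS mice received LPS without miconazole, so all animals here had received LPS and no LPS-free lung was compared. No label states how much LPS was given, by which route, for how long, or to how many animals. Each group is 1 library that pooled the lungs of all its mice, so no difference has a replicate check, none was tested, and the treatment cannot be told apart from the library.

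Chemokines are small secreted proteins that steer leukocytes through receptors on the cell surface. CXCL9 and CXCL10 are interferon-induced ligands of CXCR3, a receptor of activated T and NK lymphocytes. CXCL16 is made as a membrane-bound protein, is shed by proteases, and is read by CXCR6, which marks tissue-resident and innate-like lymphocytes. CCL17 and CCL22 are products of dendritic cells and macrophages that act on CCR4, a receptor of regulatory and type 2 helper T cells. CCR7 guides naive lymphocytes and mature dendritic cells towards lymph nodes.

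Of the 5 ligand genes 4 lie in 2 neighbouring pairs, and Cxcl16 lies apart. In mm10 coordinates, Cxcl9 (ENSMUSG00000029417, chr5:92321347-92328079, minus strand) and Cxcl10 (ENSMUSG00000034855, chr5:92346638-92348889, minus strand) are 18558 bases apart. Ccl22 (ENSMUSG00000031779, chr8:94745590-94751699, plus strand) and Ccl17 (ENSMUSG00000031780, chr8:94810453-94812036, plus strand) are 58753 bases apart. Cxcl16 is at chr11:70453983-70459984, Cxcr3 at chrX:101731535-101734269, Cxcr6 at chr9:123806475-123811760 and Ccr7 at chr11:99144196-99155077. All 8 are protein-coding genes. Cxcl10 lies within Art3 on the other strand, sharing 133 exon bases, Cxcl16 shares 552 exon bases with Zmynd15, and Cxcr6 lies within Fyco1 with 0 shared exon bases. The sources name no strand setting for the counting, and without strand the reads of such pairs cannot be told apart. Over all cells Art3 had 264 UMIs (transcript tags) in LPS_MCZ and 694 in LPS, far below Cxcl10 itself, and Zmynd15 had 90 in LPS_MCZ and 222 in LPS, below Cxcl16. Fyco1 had more UMIs than Cxcr6, with 1645 in LPS_MCZ and 2490 in LPS beside 226 Cxcr6 UMIs in LPS_MCZ and 472 in LPS.

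The proximal promoters of the 2 ligand pairs are shown so that the neighbouring genes can be set side by side. They run from 250 bases before to 50 bases after the transcription start and come from RefSeq on GRCm38.p6, where 6 of the 8 genes had an entry. Their positions are chr5:92328030-92328329 for Cxcl9, chr5:92348840-92349139 for Cxcl10, chr8:94810203-94810502 for Ccl17 and chr8:94745434-94745733 for Ccl22, written 5′ to 3′ on the strand of the gene. Capitals mark matches to 3 motifs, searched on both strands and chosen with the sequences in view.
Cxcl9: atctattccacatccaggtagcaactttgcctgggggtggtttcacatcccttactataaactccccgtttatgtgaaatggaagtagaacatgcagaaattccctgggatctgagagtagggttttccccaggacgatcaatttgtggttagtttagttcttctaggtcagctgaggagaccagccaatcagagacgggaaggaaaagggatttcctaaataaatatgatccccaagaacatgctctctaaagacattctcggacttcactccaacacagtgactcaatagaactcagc
Cxcl10: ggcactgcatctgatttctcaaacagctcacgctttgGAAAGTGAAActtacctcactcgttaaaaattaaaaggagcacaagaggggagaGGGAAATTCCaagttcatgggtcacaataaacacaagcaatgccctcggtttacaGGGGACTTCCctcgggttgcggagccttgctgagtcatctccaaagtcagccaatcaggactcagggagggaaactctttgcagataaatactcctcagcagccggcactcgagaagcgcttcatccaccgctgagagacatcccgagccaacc
Ccl17: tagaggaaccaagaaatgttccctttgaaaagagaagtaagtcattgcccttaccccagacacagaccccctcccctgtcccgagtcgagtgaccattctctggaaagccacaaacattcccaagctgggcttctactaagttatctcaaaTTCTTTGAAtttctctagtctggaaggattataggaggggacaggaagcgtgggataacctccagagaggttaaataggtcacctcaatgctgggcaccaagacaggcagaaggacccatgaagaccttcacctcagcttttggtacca
Ccl22: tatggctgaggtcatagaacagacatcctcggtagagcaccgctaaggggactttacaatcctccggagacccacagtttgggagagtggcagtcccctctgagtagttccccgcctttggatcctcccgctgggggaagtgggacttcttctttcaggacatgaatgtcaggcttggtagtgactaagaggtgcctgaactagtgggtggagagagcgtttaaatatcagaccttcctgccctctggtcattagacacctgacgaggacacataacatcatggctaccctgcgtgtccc
The interferon-stimulated response element (GAAA, any 2 bases, GAAA) is in 3.45% of 32544 mouse promoters of this length and was found in Cxcl10 as GAAAGTGAAA, starting 213 bases before the start site. The NF-kB motif (GGG, any 3 bases, TTCC) is in 5.56% of promoters and was found in Cxcl10 as GGGAAATTCC and GGGGACTTCC, 159 and 104 bases before the start. The gamma-activated site TTCNNNGAA, whose pattern reads alike on both strands, is in 8.33% of promoters and was found in Ccl17 as TTCTTTGAA, 99 bases before the start. No match to these letters was found in the windows of Cxcl9 and Ccl22. A match is a string of letters, not a shown binding site.

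After filtering, 8314 LPS_MCZ cells and 12076 LPS cells remained, with 68005975 UMIs in LPS_MCZ and 89048976 in LPS and a median of 6180.0 UMIs in LPS_MCZ and 5809 in LPS per cell. In all, 243 cell barcodes occurred in both libraries. Clusters were named after marker genes, giving 15 classes called "-like" and 2 unnamed clusters, and the 8 genes were kept out of the clustering. Levels are UMIs per 1000000 UMIs summed over a class (CPM), ratios are log2 of LPS_MCZ over LPS, and brackets hold exact 95% intervals that cover counting error only. A ratio is given where a gene had at least 20 UMIs over both libraries. Erythroid-like cells, which should make none of these RNAs, stand for free RNA, and a level is called above background where its lower bound exceeds 2 times the upper bound in those cells. The erythroid-like class also carried 8 of 8 neutrophil markers, so its levels can hold neutrophil RNA as well as free RNA, and the part of each was not tested. Of the cells, 68.9% in LPS_MCZ and 62.7% in LPS were neutrophil-like, 3.55% in LPS_MCZ and 7.02% in LPS T cell-like, 1.82% in LPS_MCZ and 3.04% in LPS NK cell-like, and 1.31% in LPS_MCZ and 2.51% in LPS B cell-like. Some other classes also carried markers of further cell types. NK cell-like cells carried 9 of 9 T cell and 5 of 5 CD8 T cell markers beside 9 of 9 NK cell markers. Fibroblast-like cells carried 7 of 7 smooth muscle or pericyte and 4 of 4 mesothelial markers beside 9 of 9 fibroblast markers. Levels of different genes are not compared.

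Over whole libraries, 4 of the 8 genes were lower by more than 1.5-fold in LPS_MCZ and none passed 2-fold. Among 17566 genes with enough UMIs, 7.17% were more than 1.5-fold lower and 9.92% more than 1.5-fold higher, and 2.7% were more than 2-fold lower and 3.63% more than 2-fold higher. Cxcl10 was at 337 CPM in LPS_MCZ and 652 CPM in LPS (−0.95), Cxcr3 at 0.691 CPM in LPS_MCZ and 1.29 CPM in LPS (−0.90), Ccr7 at 33.1 CPM in LPS_MCZ and 57.7 CPM in LPS (−0.80), and Cxcr6 at 3.32 CPM in LPS_MCZ and 5.30 CPM in LPS (−0.67). The other 4 differed less: Ccl22 −0.34, Cxcl16 −0.28, Cxcl9 0.07 and Ccl17 0.20. In such whole-lung sums, fewer cells of a type and less RNA per cell cannot be told apart, so the genes are given below class by class. T cell-like, NK cell-like and B cell-like cells were smaller shares of the LPS_MCZ library. Intervals overlapped for dendritic-like cells, at 0.41% [0.28, 0.57] in LPS_MCZ and 0.45% [0.34, 0.58] in LPS. They also overlapped for gamma delta or innate lymphoid-like cells, at 0.32% [0.21, 0.47] in LPS_MCZ and 0.43% [0.32, 0.56] in LPS. The part of these shares in the receptor ratios was not tested.

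**Figure D1:**
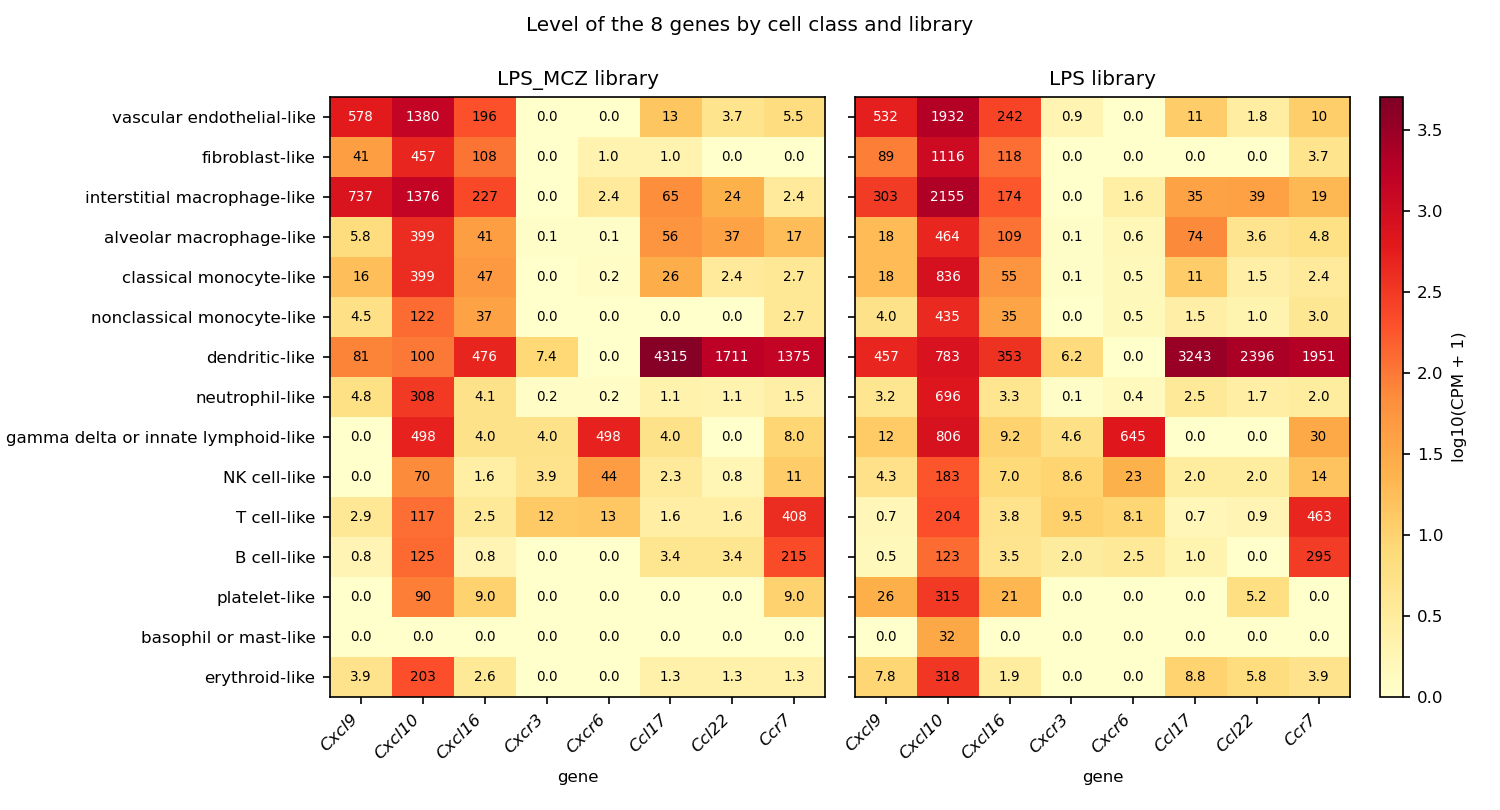
Level of each gene (columns, CPM printed in the cells, colour on a log10(CPM + 1) scale) in each named cell class (rows) of the LPS_MCZ library (left) and the LPS library (right). Ccl17, Ccl22 and Ccr7 stand out in dendritic-like cells, Cxcr6 in gamma delta or innate lymphoid-like cells, and Cxcl10 is present in nearly every class, erythroid-like cells included (203 CPM in LPS_MCZ and 318 CPM in LPS).

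Cxcl10 was found in 29.3% of LPS_MCZ cells and 39.6% of LPS cells, and was lower in LPS_MCZ in most classes. Erythroid-like cells carried 203 [173, 238] CPM in LPS_MCZ and 318 [285, 355] CPM in LPS (−0.65), with 86.0% of the UMIs in 10 cells in LPS_MCZ and 85.0% in 10 cells in LPS. The part of free RNA in the levels of other classes was not tested. Against that background 6 classes stood higher in at least 1 library: classical monocyte-like, vascular endothelial-like, interstitial macrophage-like, fibroblast-like, dendritic-like, and gamma delta or innate lymphoid-like cells. In classical monocyte-like cells Cxcl10 was at 399 [388, 410] CPM in LPS_MCZ and 836 [821, 851] CPM in LPS, a ratio of −1.07 [−1.11, −1.02]. It was lower in both monocyte clusters, at −0.97 and −1.65. Of the 6 genes with enough UMIs in this class Cxcl10 was the 1 more than 2-fold lower, where 2.56% of 12475 genes were.

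Neutrophil-like cells held 50.3% of all Cxcl10 UMIs in LPS_MCZ and 56.5% in LPS. Their level was 308 [303, 314] CPM in LPS_MCZ and 696 [689, 704] CPM in LPS, a ratio of −1.18 [−1.21, −1.14], but neither level exceeded 2 times the erythroid-like bound. Taken singly, cluster 2 exceeded it in both libraries, clusters 0 and 4 in LPS, and clusters 1, 3 and 6 in neither. Cxcl10 and Ccl17 were 2 of 7 genes more than 2-fold lower here, where 2.79% of 13096 genes were, and 0 of 7 were higher, where 5.9% were. Ccl17 was at background in these cells, at 1.12 CPM in LPS_MCZ and 2.49 CPM in LPS. Different clusters held most neutrophils in the 2 libraries. Cxcl10 was lower in each of the 6, with ratios between −1.92 and −0.37, and the counting intervals did not overlap within a cluster: cluster 0 had 276 CPM in LPS_MCZ and 1043.5 CPM in LPS, and cluster 2 had 563 CPM in LPS_MCZ and 726 CPM in LPS. With cells thinned to 2000 UMIs and shallower cells left out, 16.3% of neutrophil-like cells in LPS_MCZ and 26.5% in LPS held a Cxcl10 UMI. Of erythroid-like cells, 11.4% in LPS_MCZ and 17.9% in LPS held such a UMI. At the same thinning, 28.6% of classical monocyte-like cells in LPS_MCZ and 41.0% in LPS held one.

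Vascular and tissue cells held the highest Cxcl10 levels. Vascular endothelial-like cells, which line the vessels where leukocytes leave the blood, were at 1380.3 CPM in LPS_MCZ and 1932 CPM in LPS (−0.49 [−0.58, −0.39]), with 33.3% of thinned cells in LPS_MCZ and 46.0% in LPS positive. Interstitial macrophage-like cells, marked by the complement genes C1qa, C1qb and C1qc, were at 1376 CPM in LPS_MCZ and 2155 CPM in LPS (−0.65 [−0.79, −0.51]). In these few, shallow cells (64 cells in LPS_MCZ and 105 in LPS, median 1167.5 UMIs in LPS_MCZ and 1186 in LPS) 10 cells held 93.5% of the Cxcl10 UMIs in LPS_MCZ and 72.7% in LPS. The ratio there was −1.90 with the highest doublet scores removed and −0.10 with the libraries clustered separately. Fibroblast-like cells were at 457 CPM in LPS_MCZ and 1116 CPM in LPS (−1.29 [−1.46, −1.12]), and gamma delta or innate lymphoid-like cells at 498 CPM in LPS_MCZ and 806 CPM in LPS (−0.69), or −1.38 without the top cell of each library.

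In alveolar macrophage-like cells, the resident phagocytes of the air spaces, Cxcl10 was close to equal at 399 CPM in LPS_MCZ and 464 CPM in LPS (−0.22 [−0.29, −0.15]), and 32.9% of thinned cells in LPS_MCZ and 30.9% in LPS held a UMI. Neither level of the class was above background. The class joined clusters 9 and 11, which went opposite ways. Cluster 9, with a median of 22233 UMIs per cell, was at 310 CPM in LPS_MCZ and 441 CPM in LPS (−0.51 [−0.59, −0.43]). The low-UMI cluster 11, with a median of 912, was at 1204 CPM in LPS_MCZ and 665 CPM in LPS (0.86 [0.70, 1.01]). Thinning kept 292 of 430 cells of the class in LPS_MCZ and 391 of 637 in LPS. The thinned shares therefore leave out many cells of cluster 11. The sub-clusters also differed in direction. In sub-cluster 5, led by the interferon-induced genes Rsad2, Ifit2 and Ifit1, Cxcl10 was at 811 CPM in LPS_MCZ and 1370.2 CPM in LPS (−0.76), in 16 cells in LPS_MCZ and 61 in LPS. In sub-cluster 6 it was at 1404.8 CPM in LPS_MCZ and 826 CPM in LPS (0.77), where a single LPS_MCZ cell held 371 of 799 UMIs. In sub-cluster 1, with 64 cells in LPS_MCZ and 188 in LPS, it was at 208 CPM in LPS_MCZ and 211 CPM in LPS. B cell-like cells were likewise near equal at 125 CPM in LPS_MCZ and 123 CPM in LPS, a level at background.

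**Figure D2:**
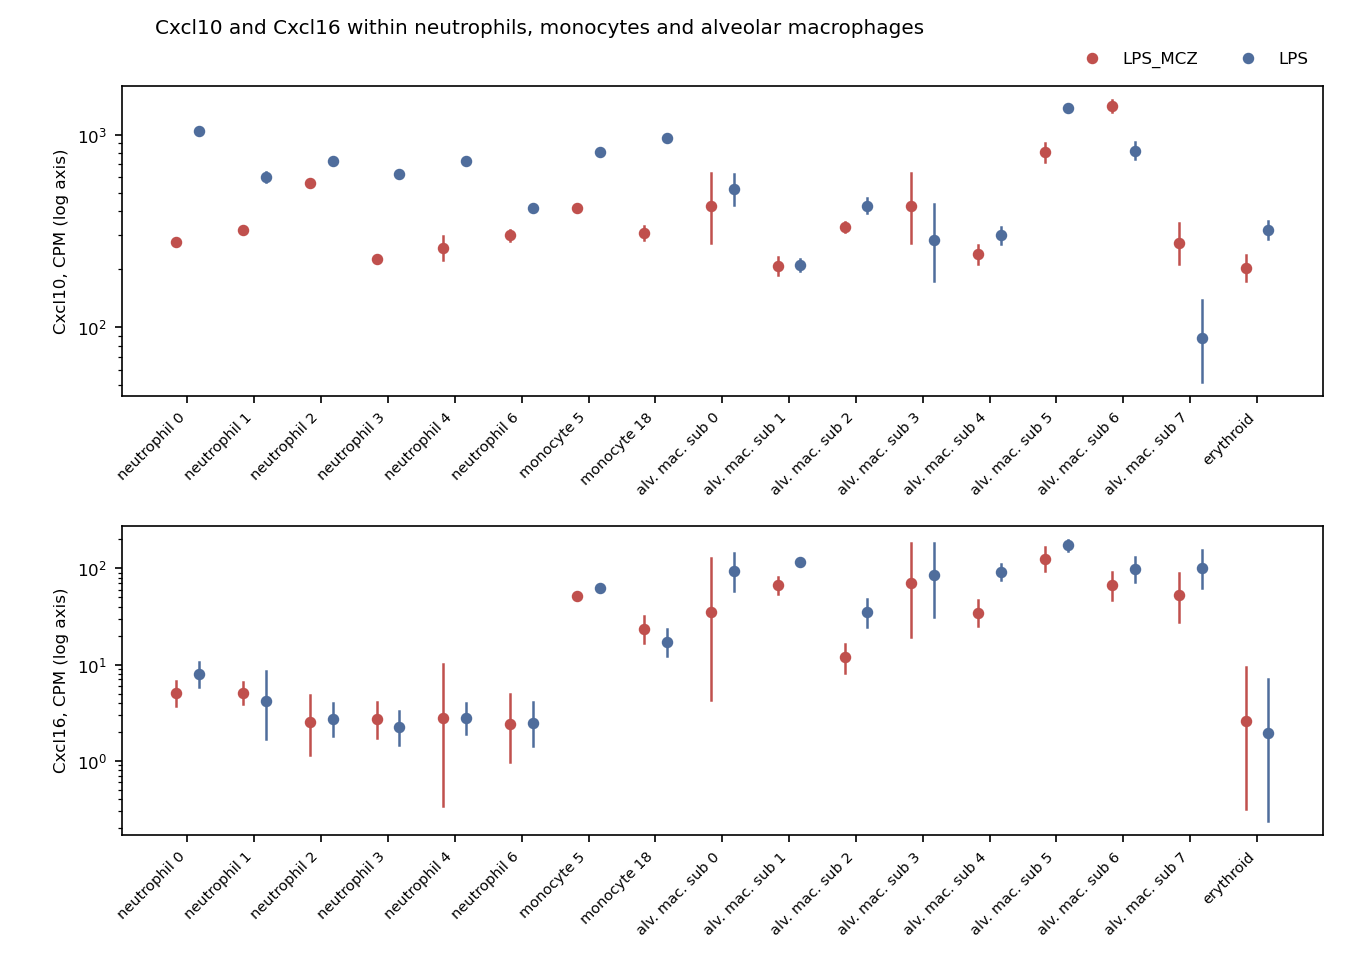
Level of Cxcl10 (top) and Cxcl16 (bottom) in CPM on a log axis, in neutrophil-like and monocyte-like clusters, alveolar macrophage-like sub-clusters and erythroid-like cells of LPS_MCZ (red) and LPS (blue), with bars for 95% Poisson intervals. Cxcl10 points of LPS_MCZ lie below those of LPS in all 6 neutrophil and both monocyte clusters, and Cxcl16 points lie below in all 8 macrophage sub-clusters.

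Cxcl9, the other ligand gene of the Cxcl10 locus, sat in far fewer cells. Vascular endothelial-like cells held 43.1% of its UMIs in LPS_MCZ and 31.6% in LPS. Their level was 578 [534, 625] CPM in LPS_MCZ and 532 [490, 578] CPM in LPS, a ratio of 0.12 [−0.05, 0.29] with both intervals overlapping. It came from 33 of 203 cells in LPS_MCZ and 43 of 217 in LPS, and 10 cells held 86.8% of the UMIs in LPS_MCZ and 80.9% in LPS. Thinning kept 108 of these cells in LPS_MCZ and 124 in LPS. Thinned shares were 16.7% in LPS_MCZ and 16.1% in LPS, although the thinned level was higher in LPS_MCZ (0.79). Of the cells with Cxcl9, 27 of 33 in LPS_MCZ and 33 of 43 in LPS also held Cxcl10. None of the 4 genes with enough UMIs in endothelial-like cells passed 2-fold, against 2.9% of 8821 genes lower and 4.56% higher.

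Dendritic-like cells held little Cxcl9 in LPS_MCZ. Its level was 81.5 [59.2, 109] CPM there and 457 [412, 507] CPM in LPS, a ratio of −2.49 [−2.97, −2.04]. It was found in 10 of 34 cells in LPS_MCZ and 19 of 54 in LPS, and the share of 1 cell was large: 163 of the 368 LPS UMIs. Thinned to 2000 UMIs per cell the ratio was −1.33. Cxcl10 was lower in the same class, with 54 UMIs at 100 [75.1, 130] CPM in LPS_MCZ and 630 UMIs at 783 [723, 847] CPM in LPS (−2.97 [−3.40, −2.57]). The LPS_MCZ level was below the erythroid-like level of that library, and the ratio was −1.62 after thinning. These were 2 of 6 genes more than 2-fold lower in dendritic-like cells, where 6.05% of 6593 genes were, and none of the 6 was more than 2-fold higher, where 7.34% were.

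Cxcl9 pointed the other way in interstitial macrophage-like cells, at 737 [657, 825] CPM in LPS_MCZ and 303 [261, 349] CPM in LPS (1.28 [1.02, 1.55]). The level was carried by 9 of 64 cells in LPS_MCZ and 7 of 105 in LPS, and 1 cell gave 207 of 305 UMIs in LPS_MCZ and 108 of 188 in LPS. Only 25 cells in LPS_MCZ and 37 in LPS had the 2000 UMIs needed for thinning. With cells thinned the ratio was −0.11, so its direction turned. It was the 1 of 5 genes past 2-fold in that class, in which 12.2% of 5660 genes were higher and 5.39% lower, and the median of all its genes was itself at 0.22. Fibroblast-like cells had 41.1 CPM in LPS_MCZ and 89.4 CPM in LPS (−1.12, or −2.20 without the top cells and −2.43 after thinning), from 4 cells in LPS_MCZ and 9 in LPS, and Cxcl9 and Cxcl10 were 2 of 3 genes past 2-fold lower there, where 5.2% of 8677 genes were and 4.69% were higher. In alveolar macrophage-like and monocyte-like cells as whole classes Cxcl9 was at background. The macrophage sub-cluster 5 was above it in LPS, with 1 UMI (2.63 CPM) in LPS_MCZ and 102 UMIs (81.8 CPM) in LPS, and 1 LPS cell held 90 of the 153 LPS UMIs of the class.

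Cxcl16 was found in phagocytes, dendritic cells, endothelium and fibroblasts, and lymphocyte classes were at background. Erythroid-like cells had 2.59 CPM in LPS_MCZ and 1.95 CPM in LPS. Alveolar macrophage-like cells had the largest difference of the named classes above background: 40.7 [36.1, 45.7] CPM in LPS_MCZ and 109 [102, 116] CPM in LPS, a ratio of −1.42 [−1.61, −1.22]. A UMI was found in 6.85% of thinned cells in LPS_MCZ and 17.4% in LPS. The UMIs were spread widely, with 10 cells holding 26.1% of them in LPS_MCZ and 14.9% in LPS, and 14 alternative settings gave ratios between −1.53 and −1.38. Of the 6 genes with enough UMIs in this class Cxcl16 and Cxcl9 were more than 2-fold lower, where 2.38% of 11587 genes were, and Ccl22 and Ccr7 more than 2-fold higher, where 5.44% were. Cxcl9 and Ccr7 were at background in the class as a whole. Most LPS_MCZ UMIs of Ccl22 lay in a single cell, as did most of Ccr7.

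Cxcl16 was also lower within the macrophage subsets, by less in some. Sub-cluster 1 had 66.6 CPM in LPS_MCZ and 116 CPM in LPS (−0.80), sub-cluster 2 had 11.9 CPM in LPS_MCZ and 35.1 CPM in LPS (−1.57), and the interferon-high sub-cluster 5 had 126 CPM in LPS_MCZ and 173 CPM in LPS (−0.45 [−0.94, 0.00]). The low-expressing sub-cluster 2, led by Nav2, Fosb and Kcnip4, held 144 of 430 cells in LPS_MCZ and 55 of 637 in LPS. Sub-cluster 4 (34.6 CPM in LPS_MCZ and 92.5 CPM in LPS, −1.42) carried 8 of 8 neutrophil markers. The mix of subsets therefore differed between libraries along with the level of the whole class, and its part in the whole-class ratio was not tested, while the level was lower in LPS_MCZ in all 8 subsets taken singly. The counting interval of the ratio spanned 0 in subsets 0, 5, 6 and 7, and subset 3 had 4 UMIs in LPS_MCZ and 6 in LPS, too few for a ratio.

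In the other named classes above background Cxcl16 differed by less than 1.5-fold. Classical monocyte-like cells had 47.1 CPM in LPS_MCZ and 55.2 CPM in LPS (−0.23 [−0.38, −0.07]) with 9.64% of thinned cells in LPS_MCZ and 9.40% in LPS positive, and nonclassical monocyte-like cells 37.2 CPM in LPS_MCZ and 34.6 CPM in LPS (0.10, or −1.24 after thinning). Endothelial-like cells had 196 CPM in LPS_MCZ and 242 CPM in LPS (−0.31 [−0.57, −0.04]) and fibroblast-like cells 108 CPM in LPS_MCZ and 118 CPM in LPS (−0.13). Interstitial macrophage-like cells were at 227 CPM in LPS_MCZ and 174 CPM in LPS (0.39 [−0.03, 0.80]), or −0.74 with the libraries clustered separately. Dendritic-like cells had the highest level, 476 [419, 538] CPM in LPS_MCZ and 353 [313, 397] CPM in LPS (0.43 [0.18, 0.68]), in 25 of 34 cells in LPS_MCZ and 38 of 54 in LPS. After thinning the dendritic ratio was 0.02. Plasmacytoid dendritic-like cells, 5 in each library, held 0 UMIs, a count that allows up to 43.9 CPM in LPS_MCZ and 45.03 CPM in LPS.

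**Figure D3:**
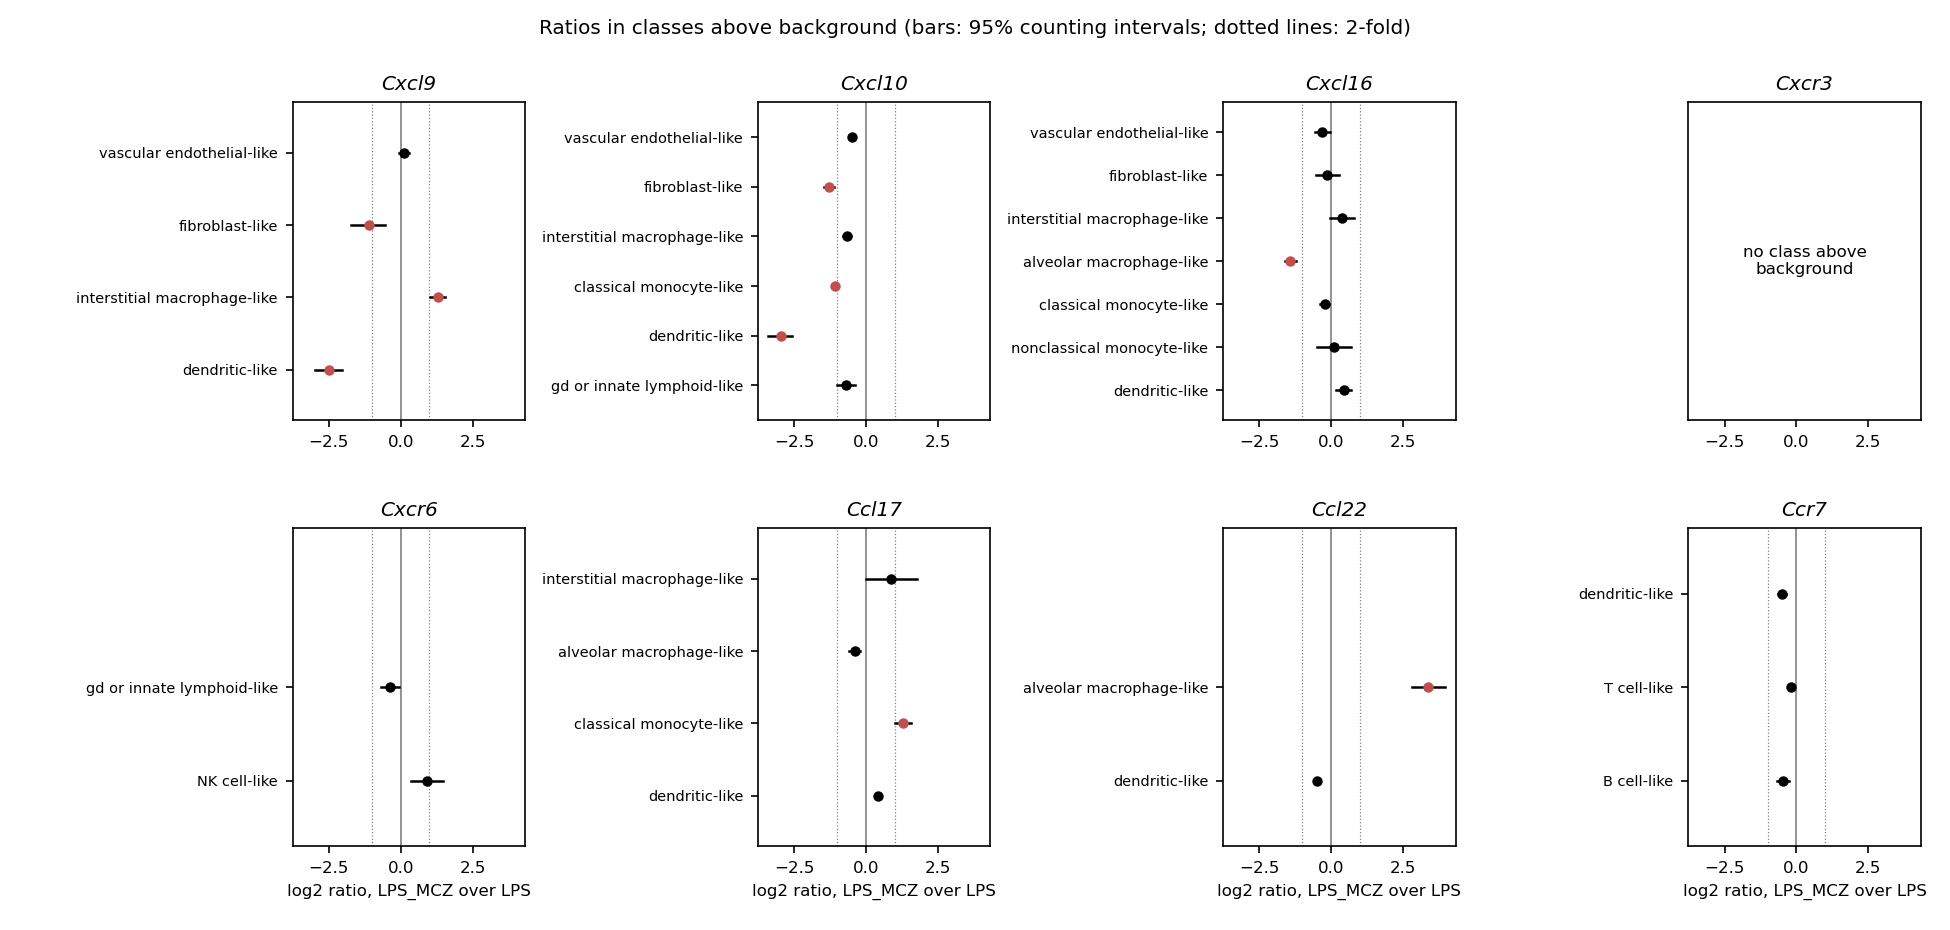
Log2 ratio of LPS_MCZ over LPS (horizontal axis) for each gene in each named class where it was above background in either or both libraries. Bars are 95% counting intervals, dotted lines mark 2-fold, and red points are past 2-fold. Cxcl10 lies left of 0 in all 6 classes shown, Cxcl9 on both sides, and Cxcr3 was above background in no class as a whole. A class could enter through the LPS library alone, so the side of 0 is partly set by this choice. Classes at background in both libraries, such as alveolar macrophage-like and B cell-like cells for Cxcl10, are not shown.

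Ccl17 and Ccl22 were dendritic genes in both libraries. Dendritic-like cells held 73.2% of all Ccl17 UMIs in LPS_MCZ and 71.9% in LPS, and 71.1% of Ccl22 UMIs in LPS_MCZ and 89.6% in LPS. Ccl17 was at 4315 [4142, 4494] CPM in LPS_MCZ and 3243 [3120, 3370] CPM in LPS (0.41 [0.33, 0.49]), in 23 of 34 cells in LPS_MCZ and 37 of 54 in LPS. Per cell it ranged up to 299.97 UMIs per 10000 in LPS_MCZ and 361 in LPS, with medians of 20.2 in LPS_MCZ and 11.2 in LPS. Ccl22 went the other way, at 1711 [1602, 1824] CPM in LPS_MCZ and 2396 [2291, 2506] CPM in LPS (−0.49 [−0.60, −0.37]), in 20 cells in LPS_MCZ and 38 in LPS, with medians of 3.89 per 10000 in LPS_MCZ and 6.43 in LPS. Neither ratio reached 2-fold, and the cells of the libraries overlapped over most of their range for both genes.

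Most dendritic-like cells with one of the pair had both. In LPS_MCZ 20 cells held Ccl17 and Ccl22, 3 Ccl17 alone, 0 Ccl22 alone and 11 neither. In LPS 34 cells held both, 3 Ccl17 alone, 4 Ccl22 alone and 13 neither. Ccl22 and Ccr7 were found together in 15 LPS_MCZ cells and 32 LPS cells. Ccl22 was found without Ccr7 in 5 LPS_MCZ cells and 6 LPS cells, and Ccr7 without Ccl22 in 3 LPS_MCZ cells and 5 LPS cells.

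The dendritic-like class was small and mixed, and its make-up differed between libraries. Sub-cluster 2 carried 9 of 9 markers of activated dendritic cells, among them Fscn1, the fascin gene of mature dendritic cells, and held 1 cell in LPS_MCZ and 14 in LPS. There the LPS cells had 4340 CPM of Ccl22, 3968 CPM of Ccr7 and 2981 CPM of Ccl17. Sub-cluster 3 (4 cells in LPS_MCZ and 10 in LPS) had Ccl22 at 1788 CPM in LPS_MCZ and 4338 CPM in LPS (−1.28) and Ccl17 at 5721 CPM in LPS_MCZ and 7262 CPM in LPS (−0.34). Sub-cluster 1 (10 cells in LPS_MCZ and 7 in LPS), with 4 of 8 interstitial macrophage markers, had Ccl17 at 7368 CPM in LPS_MCZ and 3394 CPM in LPS (1.12) and Ccl22 at 2794 CPM in LPS_MCZ and 1842 CPM in LPS (0.60). Sub-cluster 4 (5 cells in LPS_MCZ and 8 in LPS), with 8 of 8 neutrophil markers, had Ccl17 at 6506 CPM in LPS_MCZ and 3096 CPM in LPS (1.07). The plasmacytoid dendritic-like sub-cluster 5 had 0 UMIs of either gene.

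With the activated sub-cluster left out, a setting chosen after seeing the data, the class ratio of Ccl22 was −0.08 and that of Ccl17 was 0.38. The Ccr7 ratio then was −0.01, while those of Cxcl9 (−2.67), Cxcl10 (−3.11) and Cxcl16 (0.67) were as large as before or larger. The sub-clusters were drawn from the same cells, so these counts of cells are a description.

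**Figure D4:**
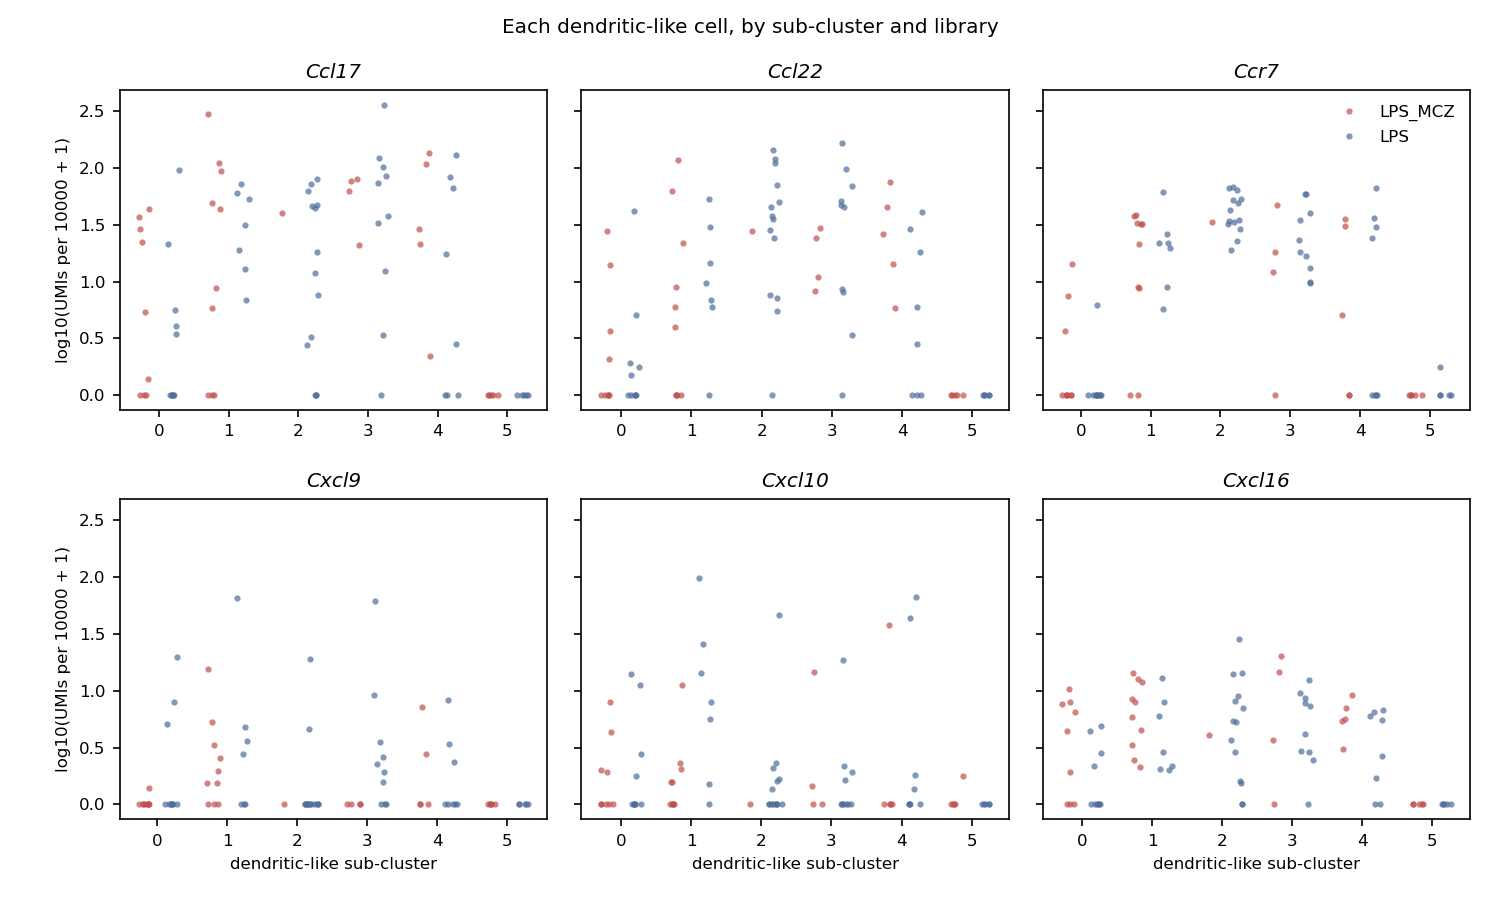
Each point is 1 dendritic-like cell of LPS_MCZ (red) or LPS (blue), placed by sub-cluster (horizontal axis) and by log10(UMIs per 10000 + 1) of the gene named above the panel (vertical axis). Sub-cluster 2 holds 1 LPS_MCZ cell and 14 LPS cells, all with Ccr7, and sub-cluster 5 has no Ccl17 or Ccl22.

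Outside the dendritic class, single cells decided the values of both genes. In alveolar macrophage-like cells Ccl22 was at 36.9 CPM in LPS_MCZ and 3.58 CPM in LPS, a ratio of 3.37, where 1 LPS_MCZ cell held 226 of 260 UMIs. Without the top cell of each library the ratio was 0.95, and with sub-clusters carrying another class left out it was 0.45. Ccr7 in this class was at background, at 16.7 CPM in LPS_MCZ and 4.77 CPM in LPS, and 1 LPS_MCZ cell of sub-cluster 4 held 86 of its 118 UMIs. Ccl17 was at 56.1 CPM in LPS_MCZ and 73.9 CPM in LPS (−0.40), and 1 LPS_MCZ cell held 267 of 396 UMIs, so that the ratio was −1.82 without the top cells. In classical monocyte-like cells Ccl17 was at 26.0 CPM in LPS_MCZ and 10.7 CPM in LPS (1.28), with 274 of 323 LPS_MCZ UMIs in 1 cell and a ratio of −0.90 without the top cells. It was the 1 of 6 genes more than 2-fold higher there, where 2.36% of genes were. Interstitial macrophage-like cells had Ccl17 at 65.3 CPM in LPS_MCZ and 35.4 CPM in LPS (0.88), or −1.76 after thinning and −4.92 with the libraries clustered separately.

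Among the receptors, Ccr7 had its highest level in dendritic-like cells and its largest share of UMIs in T cell-like cells. T cell-like cells held 44.2% of the UMIs in LPS_MCZ and 52.2% in LPS, dendritic-like cells 33.0% in LPS_MCZ and 30.6% in LPS, and B cell-like cells 11.3% in LPS_MCZ and 11.4% in LPS. In T cell-like cells Ccr7 was at 408 [383, 435] CPM in LPS_MCZ and 463 [446, 481] CPM in LPS (−0.18 [−0.29, −0.08]), and 50.4% of thinned cells in LPS_MCZ and 49.7% in LPS held a UMI. The whole-lung ratio of −0.80 thus stood beside a near-equal CPM in T cell-like cells and about 2 times the share of such cells in LPS. It also stood beside ratios of −0.50 in dendritic-like and −0.46 in B cell-like cells, and the part of each was not tested. None of the 5 genes with enough UMIs in T cell-like cells passed 2-fold, against 1.96% lower and 2.3% higher of 10858 genes. B cell-like cells had 215 CPM in LPS_MCZ and 295 CPM in LPS (−0.46 [−0.67, −0.24]), with 38.0% of thinned cells in LPS_MCZ and 42.6% in LPS positive, or 0.02 with the libraries clustered separately.

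Within T cell-like cells, Ccr7 was near equal in sub-cluster 0, led by Satb1, Bach2 and Lef1 (506 CPM in LPS_MCZ and 568 CPM in LPS), and in the CD8 T cell-like sub-cluster 2 (549 CPM in LPS_MCZ and 498 CPM in LPS). It was lower in the regulatory T cell-like sub-cluster 1, led by Foxp3, Ctla4 and Il2ra, at 309 CPM in LPS_MCZ and 485 CPM in LPS (−0.65 [−0.96, −0.36]), although the thinned shares were 31.1% in LPS_MCZ and 34.9% in LPS. In dendritic-like cells Ccr7 was at 1375 [1278, 1478] CPM in LPS_MCZ and 1951 [1856, 2050.4] CPM in LPS (−0.50 [−0.63, −0.38]), in 18 of 34 cells in LPS_MCZ and 37 of 54 in LPS. Median levels per cell were 3.36 UMIs per 10000 in LPS_MCZ and 18.3 in LPS. All 14 LPS cells of the activated sub-cluster held it.

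Cxcr3 was sparsely captured: 47 UMIs in LPS_MCZ and 115 in LPS in whole libraries. T cell-like cells had 29 UMIs at 11.9 [7.97, 17.1] CPM in LPS_MCZ and 55 UMIs at 9.51 [7.17, 12.4] CPM in LPS, a ratio of 0.32 [−0.38, 1.00] that spans 0, or 1.95 with the libraries clustered separately. The regulatory T cell-like sub-cluster was the only one of 6 T cell-like sub-clusters above background, with 55.9 [34.6, 85.4] CPM in LPS_MCZ and 45.3 [33.0, 60.6] CPM in LPS, in 9 of 48 cells in LPS_MCZ and 25 of 139 in LPS. NK cell-like cells had 5 UMIs in LPS_MCZ and 22 in LPS (3.89 CPM in LPS_MCZ and 8.60 CPM in LPS). Erythroid-like cells had 0 UMIs, which allows up to 3.88 CPM in LPS_MCZ and 2.92 CPM in LPS. Plasmacytoid dendritic-like cells held 3 of the 4 dendritic Cxcr3 UMIs in LPS_MCZ and 4 of the 5 in LPS. Cxcl10, Cxcl16 and Cxcr3 were 3 of 5 genes more than 2-fold lower in NK cell-like cells, where 3.15% of 9396 genes were and 1.79% were higher, but all 3 were at background there.

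Cxcr6 was concentrated in gamma delta or innate lymphoid-like cells, which held 54.9% of its UMIs in LPS_MCZ and 59.3% in LPS. These cells, 27 in LPS_MCZ and 52 in LPS, had 498 [414, 594] CPM in LPS_MCZ and 645 [572, 725] CPM in LPS (−0.37 [−0.69, −0.06]), in 19 cells in LPS_MCZ and 39 in LPS. Thinned shares were 44.4% in LPS_MCZ and 53.1% in LPS, next to 0% of erythroid-like cells in both libraries, and the thinned ratio was −0.70. Neither of the 2 genes with enough UMIs in that class passed 2-fold, against 8.56% lower and 4.13% higher of 4823 genes. NK cell-like cells had 44.3 CPM in LPS_MCZ and 23.5 CPM in LPS (0.92 [0.37, 1.47]), from 57 UMIs in 15 cells in LPS_MCZ and 60 UMIs in 25 cells in LPS. That ratio was −0.28 with the libraries clustered separately, and the class also carried 9 of 9 T cell markers. The regulatory T cell-like sub-cluster had 45.2 CPM in LPS_MCZ and 33.2 CPM in LPS, in 4 of 48 cells in LPS_MCZ and 14 of 139 in LPS. Dendritic-like cells had 0 Cxcr6 UMIs, which allows up to 5.55 CPM in LPS_MCZ and 3.73 CPM in LPS.

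Both receptors were found together with Ccr7 in some T cell-like cells. Of cells with Cxcr3, 2 of 13 in LPS_MCZ and 15 of 32 in LPS also held Ccr7, and of cells with Cxcr6, 8 of 12 in LPS_MCZ and 14 of 25 in LPS did. Of cells without Cxcr3, 229 in LPS_MCZ and 588 in LPS held Ccr7, while 53 in LPS_MCZ and 228 in LPS did not. Ccr7 was thus rarer among the few cells with Cxcr3 than among those without it. Of cells without Cxcr6, 223 in LPS_MCZ and 589 in LPS held Ccr7, while 60 in LPS_MCZ and 234 in LPS did not. The low-UMI cluster 8, which carried markers of several classes and has no name, held 1 Cxcr3 UMI in LPS_MCZ and 18 in LPS, and 1 Cxcr6 UMI in LPS_MCZ and 46 in LPS. The 18 Cxcr3 UMIs of LPS came from 6 cells and the 46 Cxcr6 UMIs from 8 cells, and they add to the whole-lung levels of both receptors in LPS.

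**Figure D5:**
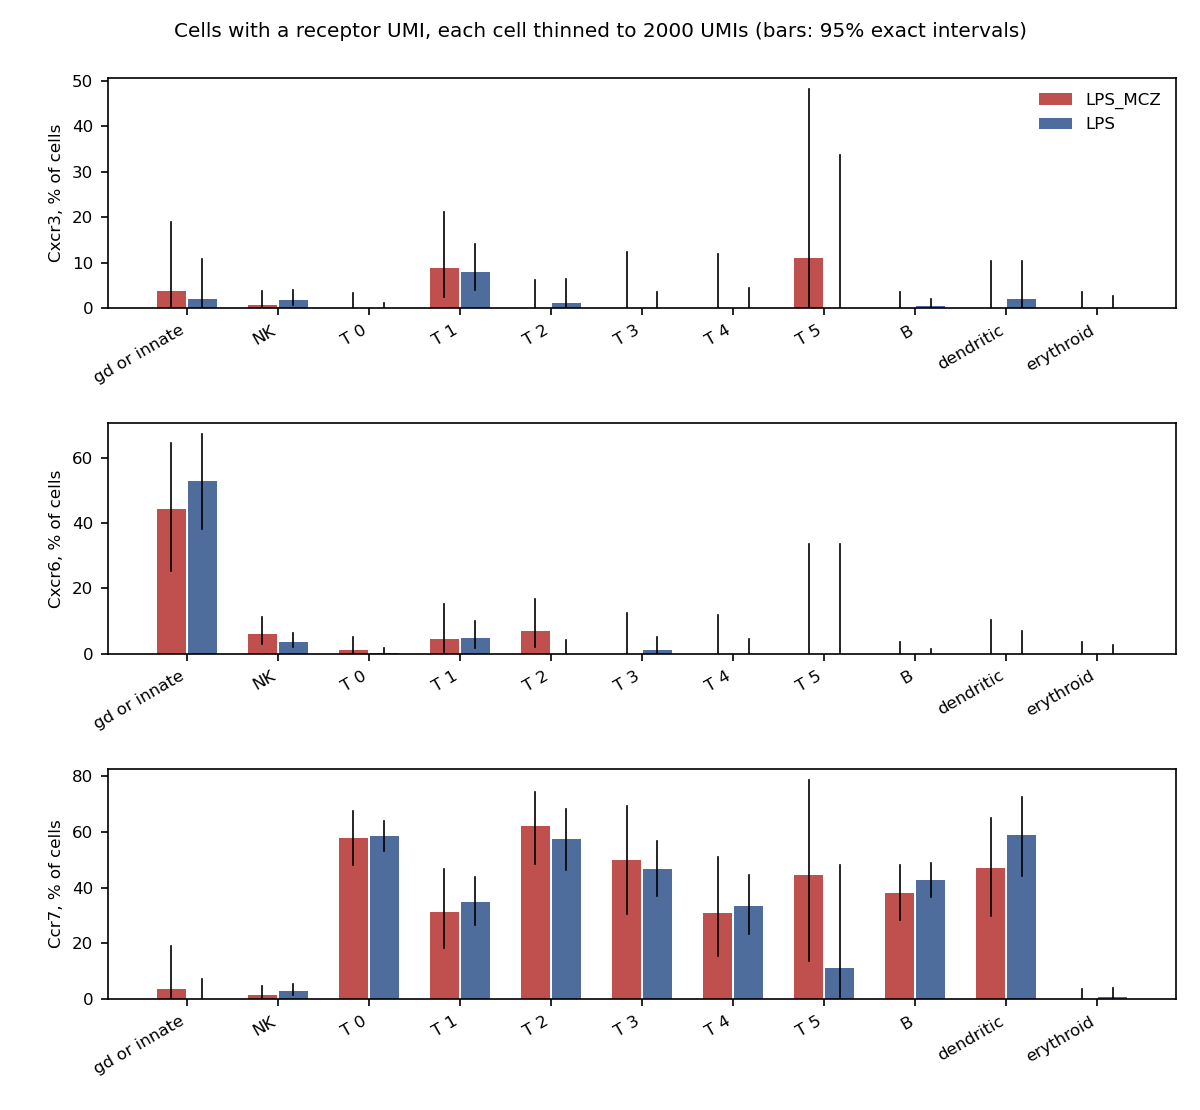
Share of cells with a UMI of Cxcr3 (top), Cxcr6 (middle) and Ccr7 (bottom), each cell thinned to 2000 UMIs, in lymphoid classes, T cell-like sub-clusters 0 to 5, dendritic-like and erythroid-like cells of LPS_MCZ (red) and LPS (blue), with 95% Clopper-Pearson intervals. Cells with fewer than 2000 UMIs are left out. Cxcr6 stands out in gamma delta or innate lymphoid-like cells (44.4% in LPS_MCZ and 53.1% in LPS) and Ccr7 is near or above 30% in T cell-like sub-clusters 0 to 4 in both libraries.

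The remaining classes had few of these UMIs above background. Cxcl10 was the 1 of 2 genes more than 2-fold lower in nonclassical monocyte-like cells (122 CPM in LPS_MCZ and 435 CPM in LPS, −1.83), where 2.76% of 8215 genes were lower and 2.34% higher, and the only 1 measured in platelet-like cells (89.6 CPM in LPS_MCZ and 315 CPM in LPS, −1.81), where 10.4% were lower and 9.08% higher. It was at background in both classes. Nonclassical monocyte-like cells carried 6 of 8 neutrophil markers and platelet-like cells 8 of 8. In the unnamed cluster 8, 2 of 6 genes were lower (Cxcl10 and Cxcr6), where 8.69% of 7651 genes were lower and 3.78% higher. In the unnamed cluster 19, which mixed airway and alveolar epithelial markers, 2 of 2 were lower, where 12.3% were lower and 7.37% higher. Neither of 2 in B cell-like cells passed 2-fold (3.01% lower and 4.94% higher), nor did the 1 in erythroid-like cells (8.34% lower and 4.85% higher). None had enough UMIs in basophil or mast-like cells (10.4% lower and 12.5% higher).

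Other genes of these pathways were counted in the classes where the 8 genes were highest. In dendritic-like cells, all 16 genes of a dendritic maturation list were below 0 and 5 were more than 2-fold lower, with a list median of −0.46 beside 0.09 for all genes of the class, 6.05% of which were more than 2-fold lower and 7.34% higher. The 5 were Fscn1 (−1.12), the calcium channel subunit gene Cacnb3 (−1.93), Tmem123 (−1.36), and the interleukin 15 pair Il15 (−1.36) and Il15ra (−1.31). Fscn1, Cacnb3, Il4i1 and Socs2 of this list are also markers of the activated sub-cluster that held 1 cell in LPS_MCZ and 14 in LPS, so the list and the make-up of the class moved together, and how far one accounts for the other was not tested. Of 17 genes of the interferon gamma axis measured in the class 5 were more than 2-fold lower and 1 higher, with a median of −0.67, beside the same 6.05% and 7.34% of all genes. They were the guanylate-binding genes Gbp4 (−1.90) and Gbp5 (154 CPM in LPS_MCZ and 308 CPM in LPS), the related GTPase gene Igtp (−2.16), Il12b (−1.04), the p40 subunit gene of interleukin 12, and Il18 (−2.60, 2 UMIs in LPS_MCZ and 18 in LPS). Ciita, the switch of MHC class II genes, was higher (1.29). In endothelial-like cells 0 of 16 of the interferon gamma axis were more than 2-fold lower (median −0.07), where 2.9% of all genes were. In interstitial macrophage-like cells 0 of 16 were lower and 1 higher (0.13), where 5.39% and 12.2% were. In alveolar macrophage-like cells 0 of 15 were lower (−0.29, 2.38% of all genes). In gamma delta or innate lymphoid-like cells 0 of 14 were (−0.03, 8.56%), and in T cell-like cells 1 of 17 (−0.26, 1.96%).

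The type I interferon axis holds the receptors, factors and induced genes of the pathway that also induces Cxcl10. In interstitial macrophage-like cells all 16 measured were below 0 and 9 were more than 2-fold lower, with a median of −1.22 beside 0.22 for all genes, 5.39% of which were lower. Among them were Ifit2 (−2.70), Cmpk2 (−2.69) and Rsad2 (−2.30). In dendritic-like cells 6 of 17 were more than 2-fold lower and 0 higher (median −0.44), where 6.05% of all genes were lower, led by Ifit2 (−1.79) and Ifit3 (−1.62). In endothelial-like cells 3 of 18 were lower and 0 higher (median −0.53), where 2.9% of all genes were lower: Rsad2 (−1.14), Oasl1 (−1.43) and Ifit2 (−1.04). Alveolar macrophage-like cells had near-equal Cxcl10 as a whole class, with opposite directions in clusters 9 and 11. There 7 of 19 genes of the axis were lower and 1 higher (median −0.84), led by Usp18 (−1.57). Of all genes in that class 2.38% were lower and 5.44% higher. The 1 higher, Ifnb1, the interferon beta gene, had 24 UMIs in LPS_MCZ, 23 of them in 1 cell, and 0 in LPS. Over whole libraries Ifng, the interferon gamma gene that induces Cxcl9, was at 11.1 CPM in LPS_MCZ and 24.4 CPM in LPS (−1.14), and in NK cell-like cells, which held most of it, at 545 CPM in LPS_MCZ and 751 CPM in LPS (−0.46).

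Other lymphocyte chemokines were counted in the same way. In alveolar macrophage-like cells Ccl5, an attractant of T cells, was at 706 CPM in LPS_MCZ and 2479 CPM in LPS (−1.81), from 189 cells in LPS_MCZ and 365 in LPS. In interstitial macrophage-like cells Cxcl13, a B cell attractant, was at 2764 CPM in LPS_MCZ and 5930 CPM in LPS (−1.10), from 14 cells in LPS_MCZ and 22 in LPS, with 529 of 1143 UMIs in LPS_MCZ and 651 of 3681 in LPS in the top cell. In endothelial-like cells Cxcl12, the ligand of Cxcr4, was at 50.6 CPM in LPS_MCZ and 157 CPM in LPS (−1.64), and its scavenger receptor gene Ackr3 at 163 CPM in LPS_MCZ and 338 CPM in LPS (−1.06). Ccl21a, a Ccr7 ligand, was higher in the same cells (1.41), but 172 of 182 LPS_MCZ UMIs lay in 1 cell and all 68 LPS UMIs in 1 other. Over whole libraries 3 of 11 genes of this list were more than 2-fold lower, namely Cxcl13 (−1.28), Ccl20 (−1.30) and Xcl1 (−1.28), and 1 higher, Ccl21a (1.71), where 2.7% of all genes were lower and 3.63% higher. None of 12 other receptors passed 2-fold, with a median of −0.39. Of 8 atypical receptors and processing enzymes, Ackr1 was more than 2-fold lower (−1.91) and Ackr2 higher (1.21), and Adam10, a protease that sheds CXCL16, was at 0.41. In endothelial-like cells all 12 Ackr1 UMIs of LPS_MCZ lay in 1 cell, and 46 of the 63 of LPS in 1 cell. A single LPS cell of the gamma delta or innate lymphoid-like class held 211 Ccl20 UMIs.

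The genes most like each member were ranked by Pearson's r of log2(CPM + 20) over 30 points, the 15 classes in each of the 2 libraries, among 10352 genes. The points share libraries and depth, so r describes these data and carries no p. Cxcl10 was most like Eif2ak2 (0.808), the gene of an interferon-induced kinase, and Mlkl (0.741). Cxcl9 was most like Psd3 (0.864), and Cxcl16 like Nav1 (0.872). Cxcr6 was most like Cd163l1 (0.972), Calca (0.953), and the cytokine genes Il17a (0.952), Il22 (0.950) and Il17f (0.950), all high in the gamma delta or innate lymphoid-like class. Calca, Il17a and Il22 were also among the markers that named this class. Ccl17 and Ccl22 were both most like Siglech (0.938 and 0.966), a plasmacytoid dendritic marker whose own sub-cluster held neither chemokine. All dendritic subsets form 1 class in this ranking. Ccl22 was also like Fscn1 (0.928). Ccr7 was most like Btla (0.921) and Cxcr3 like Grap2 (0.918).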

How the data were processed

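Single cells from 1 LPS_MCZ and 1 LPS library were captured with 10x 3′ chemistry. The deposited matrices hold raw UMI counts per gene and cell, made by the authors with Cell Ranger 7.0.0, per the file headers; bcl2fastq 2.20 and mm10 are named in the submitters' processing notes. No normalization had been applied. The LPS_MCZ library held 8500 barcodes with 68467793 UMIs and the LPS library 12577 barcodes with 90597705 UMIs.

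Cells with at least 200 genes and 500 UMIs and at most 20% mitochondrial UMIs were kept. They were clustered with scanpy 1.11.5 and python-igraph 0.11.9 (Python 3.11.15; 2000 variable genes without the 8 members, 30 components, 15 neighbours, resolution 1.0), and dendritic, T cell and macrophage classes were clustered again. A cluster was named from at least 3 markers with a log2 difference of at least 1. A doublet caller marked 0 cells in LPS_MCZ and 2 in LPS and had not worked, so no doublets were removed. In all, 368 cells lay in sub-clusters carrying markers of another class, and UMI totals of all cells in a class were used.

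Exact Poisson intervals for levels and Clopper-Pearson intervals for shares (scipy 1.17.1) cover counting error only; many UMIs came from few cells, so the spread between cells is wider. Cells were thinned to 2000 UMIs for shares, and cells with fewer UMIs were left out. A class at 0 UMIs was set to a floor of 3. With 1 library per group no p-value was computed, and a gene past 2-fold is described as lower or higher. The pipeline was tested on simulated data. The named genes are the 8 members, the genes of the lists past 2-fold in the classes where members are highest, and those most alike in pattern. The members, lists and motifs were chosen with earlier results of these data known.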

Additional observations from a re-analysis of the deposited data

Results flagged for a closer look

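For 5 genes the ratio as reported pointed in opposite directions in 2 cell classes, and for 3 of them an alternative setting turned one of the directions. Each class has 1 library per group, so the difference between classes was not tested.

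Cxcl9 stood at 1.28 in interstitial macrophage-like cells and −2.49 in dendritic-like cells, and 1 cell gave 207 of the 305 LPS_MCZ UMIs of the macrophage-like cells, where the ratio was −0.11 after thinning. Cxcl16 stood at 0.43 in dendritic-like cells and −1.42 in alveolar macrophage-like cells. Cxcr6 stood at 0.92 in NK cell-like cells, or −0.28 with the libraries clustered separately, and −0.37 in gamma delta or innate lymphoid-like cells. Ccl17 stood at 1.28 in classical monocyte-like cells, with 274 of 323 LPS_MCZ UMIs in 1 cell and a ratio of −0.90 without the top cells, and −0.40 in alveolar macrophage-like cells. Ccl22 stood at 3.37 in alveolar macrophage-like cells, with 226 of 260 LPS_MCZ UMIs in 1 cell, and −0.49 in dendritic-like cells.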

How the results depend on the processing

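Of 351 alternative values for 29 results, 338 kept the direction. No paired analysis was possible because each group has 1 library. Settings that left out sub-clusters or the low-UMI macrophage cluster were chosen after seeing the data. Directions of called values turned for Cxcl9 in interstitial macrophage-like cells after thinning (−0.11), and for Ccl17 in classical monocyte-like cells with libraries clustered separately (−3.66) or without the top cells (−0.90). At 1.5-fold, 4 members were lower over all cells, where 7.17% of all genes were lower and 9.92% higher, against 0 at 2-fold.

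Thinning moved Cxcl9 in endothelial-like cells (0.79), Cxcr6 in gamma delta or innate lymphoid-like cells (−0.70), Cxcl10 in interstitial macrophage-like cells (−1.24), and in dendritic-like cells Cxcl16 (0.021), Ccl17 (0.23), Ccl22 (−0.71) and Ccr7 (−0.68). Removing the highest doublet scores moved Cxcl10 in interstitial macrophage-like cells (−1.90), and in dendritic-like cells Cxcl16 (0.18), Ccl17 (0.16), Ccl22 (−0.74) and Ccr7 (−0.76). Clustering libraries separately moved Cxcl10 in interstitial macrophage-like cells (−0.10) and Cxcr3 in T cell-like cells (1.95). Without the top cells, Cxcl10 in interstitial macrophage-like cells was −0.85, and Ccl17 (0.27) and Ccl22 (−0.70) moved in dendritic-like cells. With the class median set to 0, Cxcl10 in interstitial macrophage-like cells was −0.87 and dendritic Ccl17 0.33. Without sub-clusters carrying another class, dendritic Ccl17 was 0.22, Ccl22 −0.86 and Ccr7 −0.69, and without the activated sub-cluster Ccl22 was −0.085 and Ccr7 −0.0054. For these moves the cause was not tested. No value could be had for 17 alternatives, mostly because a class did not form when clustering changed. Cell numbers (34 cells in LPS_MCZ and 54 in LPS) and depth both limit the dendritic-like values.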

Other observations

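Ccl5, which was lower in alveolar macrophage-like cells (706 CPM in LPS_MCZ and 2479 CPM in LPS), was higher in vascular endothelial-like cells, at 725 CPM in LPS_MCZ and 57.3 CPM in LPS. The endothelial value came from 42 cells in each library, and the top LPS_MCZ cell held 333 of 788 UMIs. Ccl20, the ligand of Ccr6, had 0 UMIs in LPS_MCZ and 211 in LPS in gamma delta or innate lymphoid-like cells, all 211 in 1 cell.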
